A study of Mus musculus with 9 samples.

Results

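Tibiae of mice given titanium particles (Ti, 3 libraries) were compared with tibiae of mice left without treatment (naive, 3 libraries). The members are the 6 libraries whose columns carry the names Ti and Naive, out of 9 libraries in all, and they are described across the 14211 genes with enough counts to be tested, of 22183 in the deposited table. The remaining 3 libraries came from mice given titanium particles together with I-OG, an injectable hydrogel that carries irisin, a peptide derived from the muscle membrane protein encoded by Fndc5. They entered the statistical fit to estimate the spread between libraries. In all groups the material was polyadenylated RNA of the tibia. For the naive and Ti groups the sources used here state no strain, sex, age or particle dose. Groups were compared after 5 weeks of treatment per the series text, which does not say how that time applies to the naive group. None of the samples analysed here is labelled as a sham procedure, so the particles and the procedure that delivered them cannot be told apart. The labels do not state whether samples within a group are different animals. Each p-value therefore reflects sample-to-sample spread that may be technical.

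Particles worn from joint implants are taken up by macrophages and can lead to osteolysis, the loss of bone around the implant, which loosens it without infection. Osteoclasts carry out the resorption: these fused cells of the myeloid lineage acidify the bone surface and cut its collagen with cathepsin K. Osteoblasts lay down the collagenous bone matrix, osteocytes embedded in it secrete the Wnt inhibitor sclerostin, and a fibrous tissue often forms between the implant and the bone.

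The total count per library ranged from 20164094 to 24766516. Expression is given as CPM, the counts of a gene scaled to a common library total after TMM normalisation. A count of 3 in a library corresponds to 0.114 to 0.147 CPM. A log2 fold change is positive where Ti was higher, and SE is its standard error. Every adjusted p comes from edgeR's quasi-likelihood test with Benjamini-Hochberg adjustment over all 14211 genes, with n = 3 libraries in each group. A gene is said to have risen or fallen where it was under 0.05. On the 6 libraries, 58.1% of the variance lay on the first principal component. Its scores for replicates 1 to 3 were −31.5, −10.7 and −58.6 in naive and 36.2, 58.6 and 6.01 in Ti. Naive replicate 3 and Ti replicate 2 were thus the 2 ends of this axis, and naive replicate 2 and Ti replicate 3 lay nearest to each other. Markers of the tissue were present throughout: Dmp1, a matrix protein of osteocytes, was at 48.1 CPM or more in each of the 6 libraries, and 22 erythroid genes took 3.54% to 10.8% of the counts.

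Of the 14211 genes, 914 (6.43%) changed between Ti and naive, 575 (4.05%) higher and 339 (2.39%) lower in Ti. Rises were larger than falls. The median log2 fold change was 1.29 among the genes that rose and −0.81 among those that fell, against 0.01 over all genes tested. A change of at least 4-fold was reached by 110 genes that rose and 9 that fell, and one of at least 8-fold by 28 and 1. For 3871 genes (27.2%) every library of one group lay above every library of the other, 2036 of them (14.3%) higher and 1835 (12.9%) lower in Ti.

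The same libraries stood at the ends for most called genes. Among the 575 genes that rose, Ti replicate 2 was the highest Ti library for 456 and Ti replicate 3 the lowest for 434, and naive replicate 3 was the lowest naive library for 377. Among the 339 that fell, naive replicate 3 was the highest naive library for 301 and Ti replicate 2 the lowest Ti library for 208. Leaving out 1 library changed the number of calls: 100 genes passed without Ti replicate 1, 105 without Ti replicate 2, 213 without naive replicate 3, 405 without naive replicate 1, 1428 without naive replicate 2 and 1999 without Ti replicate 3. A total of 81 of the 914 genes passed in all 6 of these fits, among them Tnmd, Col3a1, Mmp12, Ctsk, Dmp1, Prok2, Ggt1, Ifitm1 and Acod1, which are described next.

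**Figure D1:**
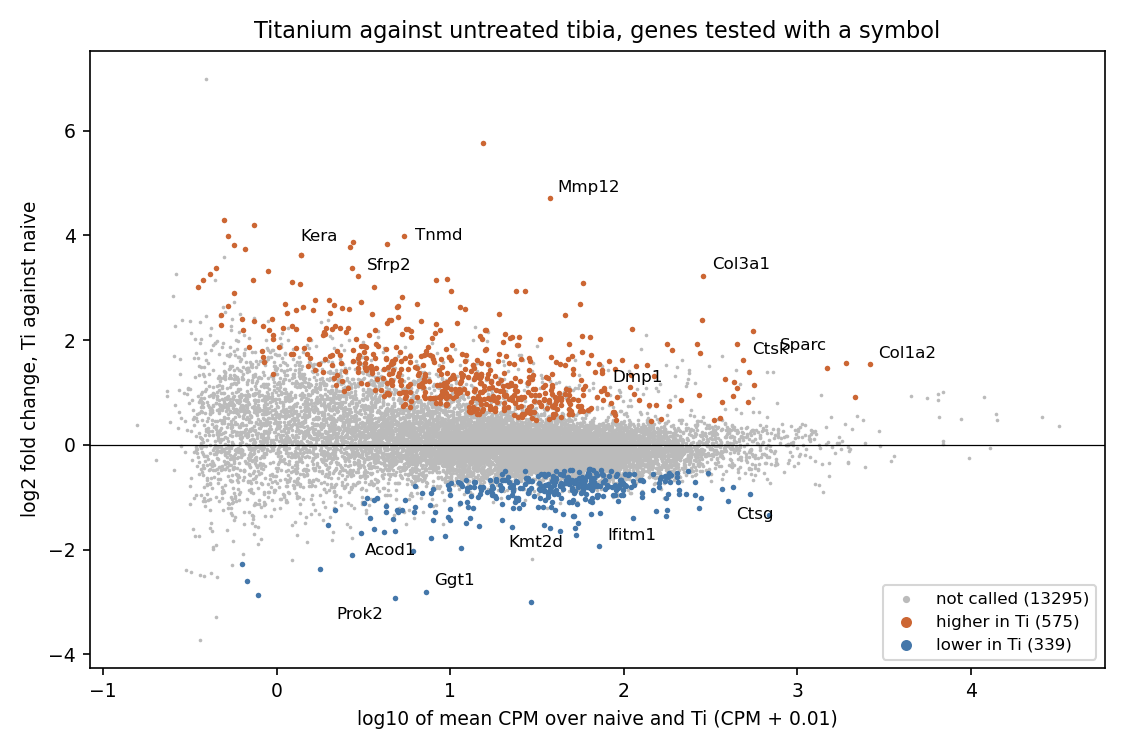
Log2 fold change of Ti against naive (vertical axis) by the log10 of the mean CPM over both groups (horizontal axis), 1 point per tested gene with a symbol. Orange points are the 575 genes that rose and blue points the 339 that fell. The labelled rises reach a log2 fold change of 4.71 (Mmp12) and the labelled falls −2.93 (Prok2). Of the labelled genes, Sparc and Col1a2 lie furthest to the right.

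Genes were grouped in 53 lists by role and cell type, which together hold 1184 tested genes and 218 of the 914 calls. The largest shares of risen members were those of tendon and ligament (14 of 16), fibrillar collagens (8 of 11), small leucine-rich proteoglycans (10 of 14), matricellular proteins (13 of 20), osteocytes (9 of 14) and osteoblasts with bone matrix (15 of 25), where 4.05% of all tested genes rose. The lists with the largest shares of fallen members were chromatin remodelling with histone methylation (9 of 41), interferon-stimulated genes (5 of 34) and neutrophils (3 of 23), against 2.39% of all genes. The counts of risen and fallen members given below for each list are to be read beside these shares of 4.05% and 2.39%. The material is bulk tissue, so fewer cells of a type and less RNA per cell cannot be told apart in any of these counts. Exons that overlap another gene, or sequence shared with a near-identical copy, make the values of these named genes uncertain: Commd1b, Pagr1a, Ccl21a, Ccl21b, Mmp12, Prg4, Aspn, Pcolce, Prtn3, Cd72, Ly6c1, Ifitm2, Foxm1, mt-Nd6, Dbp, Nr1d1, Ash1l, Bglap, Csf2rb, Col4a1, Col4a2, Itgam, Shox2, Ackr4, Ccnd1, Tspo, Chdh, Zbed6, Hbb-bs and mt-Co3. For Mmp12 the overlapping gene, Mmp1b, had 0 counts in all libraries.

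**Figure D2:**
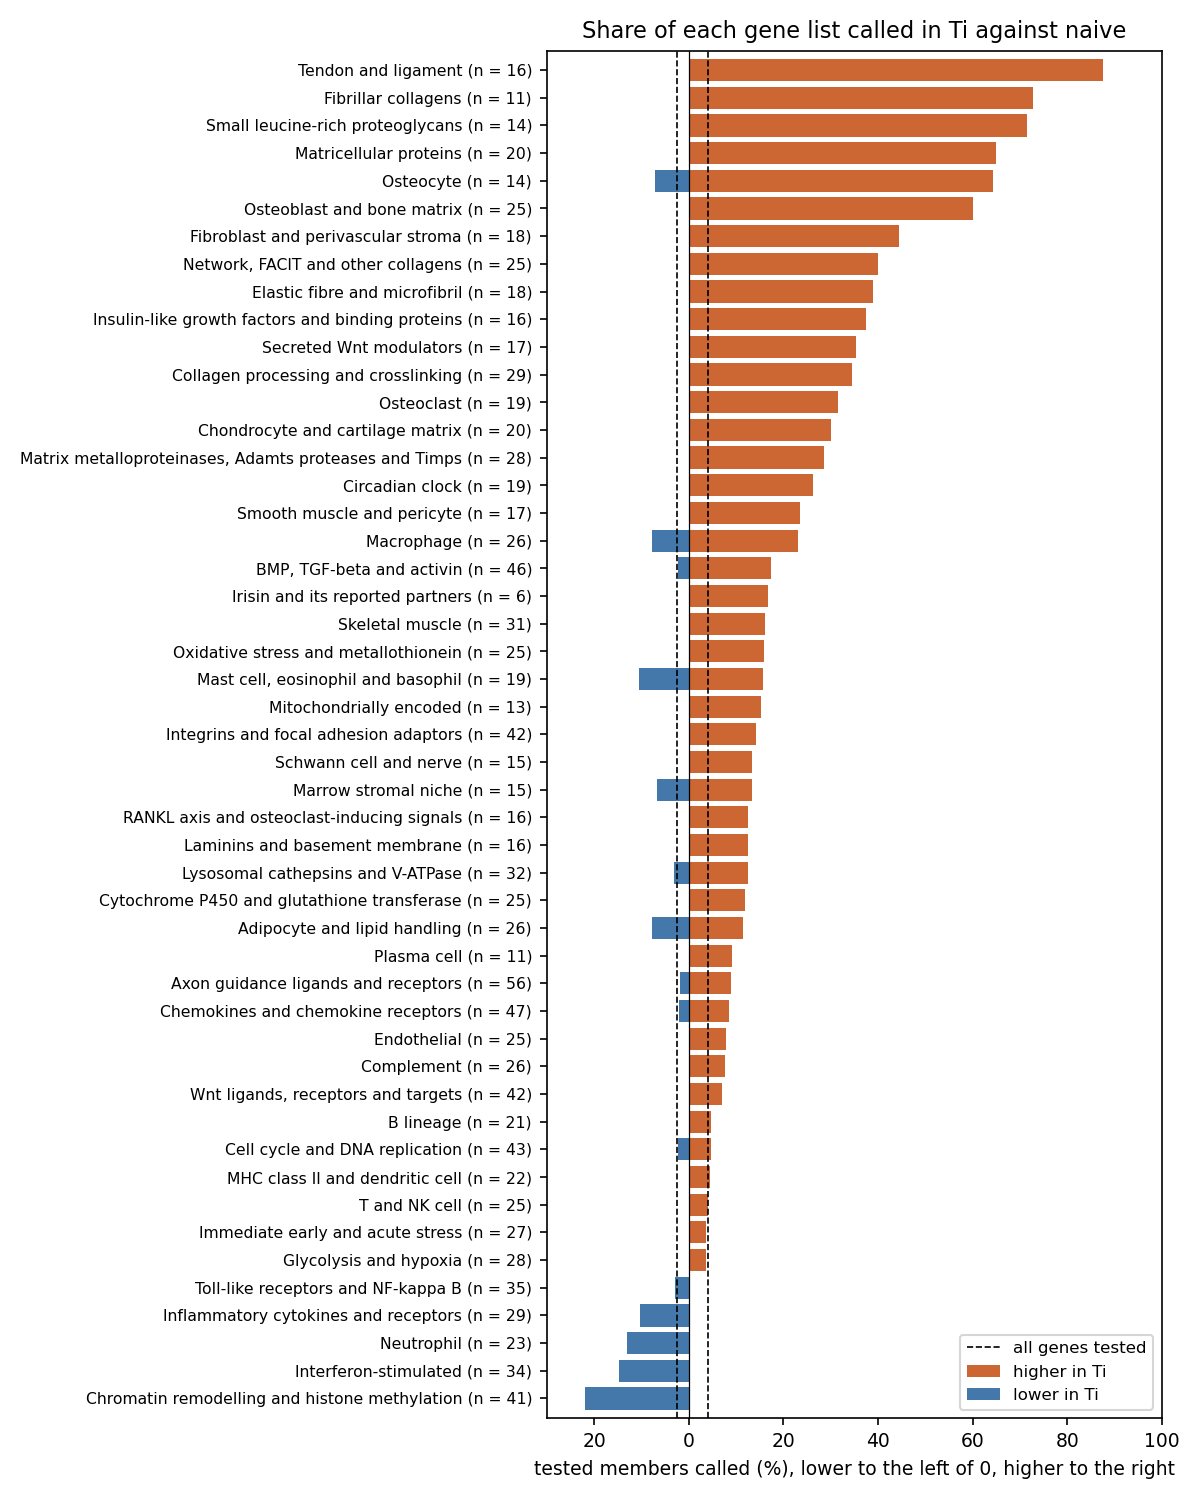
Share of the tested members of each gene list that rose (orange, to the right) or fell (blue, to the left) in Ti, in percent. The dashed lines give the shares over all genes tested, 4.05% risen and 2.39% fallen. Tendon and matrix lists stand at the top, and the chromatin list, with 9 of 41 members fallen, at the bottom. Lists without a called member are left out.

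Tendon and ligament genes had the largest shift of any list. Of 16 tested members 14 rose, and the median log2 fold change was 2.22 against 0.01 over all genes. All 16 had groups that did not overlap and were higher in Ti, against 14.3% of all tested genes. Tnmd, which encodes the tendon cell membrane protein tenomodulin, was at 0.759, 0.5604 and 0.587 CPM in naive and 10.7, 13.4 and 6.51 CPM in Ti (log2 fold change 3.98, SE 0.334, adjusted p = 0.00098). Ti replicate 3 was the lowest Ti library and still far above the highest naive one. Thbs4, a thrombospondin of tendon and muscle attachment, was at 3.65, 5.84 and 7.04 CPM in naive and 40.98, 59.3 and 26.5 CPM in Ti (log2 fold change 2.94, SE 0.311, adjusted p = 0.00169). Fmod, the collagen-binding proteoglycan fibromodulin, was at 17.9, 13.8 and 10.4 CPM in naive and 75.1, 101.4 and 57.8 CPM in Ti (log2 fold change 2.47, SE 0.295, adjusted p = 0.00214). For both genes Ti replicate 2 was highest and Ti replicate 3 lowest, and the groups did not overlap. Angptl7, a secreted angiopoietin-like protein, showed a narrower spread in Ti, with 3.304, 4.48 and 3.1 CPM in naive and 18.5, 19.96 and 16.4 CPM in Ti (log2 fold change 2.33, SE 0.236, adjusted p = 0.00166). Kera, the proteoglycan keratocan, was at 0.266, 0.467 and 0.335 CPM in naive and 5.81, 6.805 and 2.11 CPM in Ti (log2 fold change 3.78, SE 0.496, adjusted p = 0.00325). Scx, the transcription factor scleraxis that defines tendon progenitors, did not pass the test, at 0.5696, 0.467 and 0.209 CPM in naive and 0.991, 2.56 and 0.833 CPM in Ti (log2 fold change 1.805, SE 0.597, adjusted p = 0.0877), with Ti replicate 2 well above the other libraries. The number of risen tendon genes was 10 without Ti replicate 1 or 2 and 16 without Ti replicate 3.

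Skeletal muscle borders on tendon, and its markers were examined beside these genes. All 31 tested muscle genes had positive fold changes, with a median of 1.17, and 5 rose. The groups of 5 did not overlap and were higher in Ti, against 14.3% of all tested genes. The summed level of the list was 1816, 4923 and 4113 CPM in naive and 8057, 13160 and 3861 CPM in Ti, so Ti replicate 3 lay within the naive range, while its summed tendon level of 684 CPM was above all naive libraries (266 to 326 CPM). Of 12 skin and hair genes 7 had too few counts to be tested, among them the keratin genes Krt5 and Krt14. All 12 together summed to 11.9 to 13.6 CPM in naive and 10.5 to 12.4 CPM in Ti. The part of muscle tissue in the tendon result was not tested.

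Of 18 fibroblast and perivascular genes 8 rose, with a median of 0.93, and of 14 small leucine-rich proteoglycans, which bind collagen fibrils and set their diameter, 10 rose, with a median of 1.92 and all 14 fold changes positive. Aspn, which encodes asporin, was at 16.8, 12.3 and 7.67 CPM in naive and 121, 129.9 and 61.7 CPM in Ti (log2 fold change 3.09, SE 0.327, adjusted p = 0.00169). Ogn, the proteoglycan osteoglycin, was at 28.1, 25.7 and 11.6 CPM in naive and 101.7, 116 and 59.8 CPM in Ti (log2 fold change 2.08, SE 0.308, adjusted p = 0.00623). Naive replicate 3 was the lowest library for both genes. Clec3b, which encodes the plasminogen-binding protein tetranectin, was at 1.29, 1.96 and 0.838 CPM in naive and 7.32, 10.3 and 7.74 CPM in Ti (log2 fold change 2.63, SE 0.315, adjusted p = 0.00214). Mfap5, a microfibril protein of fibroblasts, was at 0.911, 1.12 and 0.377 CPM in naive and 6.09, 9.03 and 4.31 CPM in Ti (log2 fold change 3.01, SE 0.467, adjusted p = 0.00755). Dpt, the matrix protein dermatopontin, varied more in naive, from 1.299 CPM in replicate 3 to 11.02 CPM in replicate 2, against 24.98 to 66.5 CPM in Ti (log2 fold change 2.93, SE 0.593, adjusted p = 0.0207). Without Ti replicate 1 or 2 the counts of risen genes were 3 for fibroblasts and 4 for the proteoglycans, and without naive replicate 3 there were 5 for fibroblasts. Pdgfra, a receptor that marks mesenchymal stromal cells, did not pass, with a log2 fold change of 0.52 (adjusted p = 0.0537).

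Matricellular proteins, which sit in the matrix and signal to cells rather than bear load, rose in 13 of 20 cases with a median of 1.495. Tnn, or tenascin W, was at 1.75, 0.981 and 1.38 CPM in naive and 7.93, 10.7 and 7.299 CPM in Ti (log2 fold change 2.65, SE 0.271, adjusted p = 0.00166). Thbs2, a thrombospondin of fibroblasts, was at 8.66, 7.71 and 9.55 CPM in naive and 34.9, 47.8 and 23.5 CPM in Ti (log2 fold change 2.03, SE 0.228, adjusted p = 0.00214). Ccn3, a member of the CCN family, was at 1.101, 1.35 and 0.712 CPM in naive and 5.24, 7.09 and 5.68 CPM in Ti (log2 fold change 2.51, SE 0.313, adjusted p = 0.00264). The Ti libraries lay above the naive ones for all 3 genes, and these calls were kept in each fit with 1 library left out. The count of risen matricellular genes was 8 without Ti replicate 1 or 2. Spp1, which encodes osteopontin, did not pass at 907, 1313 and 583 CPM in naive and 1843, 2161 and 1447 CPM in Ti (log2 fold change 0.96, SE 0.298, adjusted p = 0.0741), although its groups did not overlap.

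**Figure D3:**
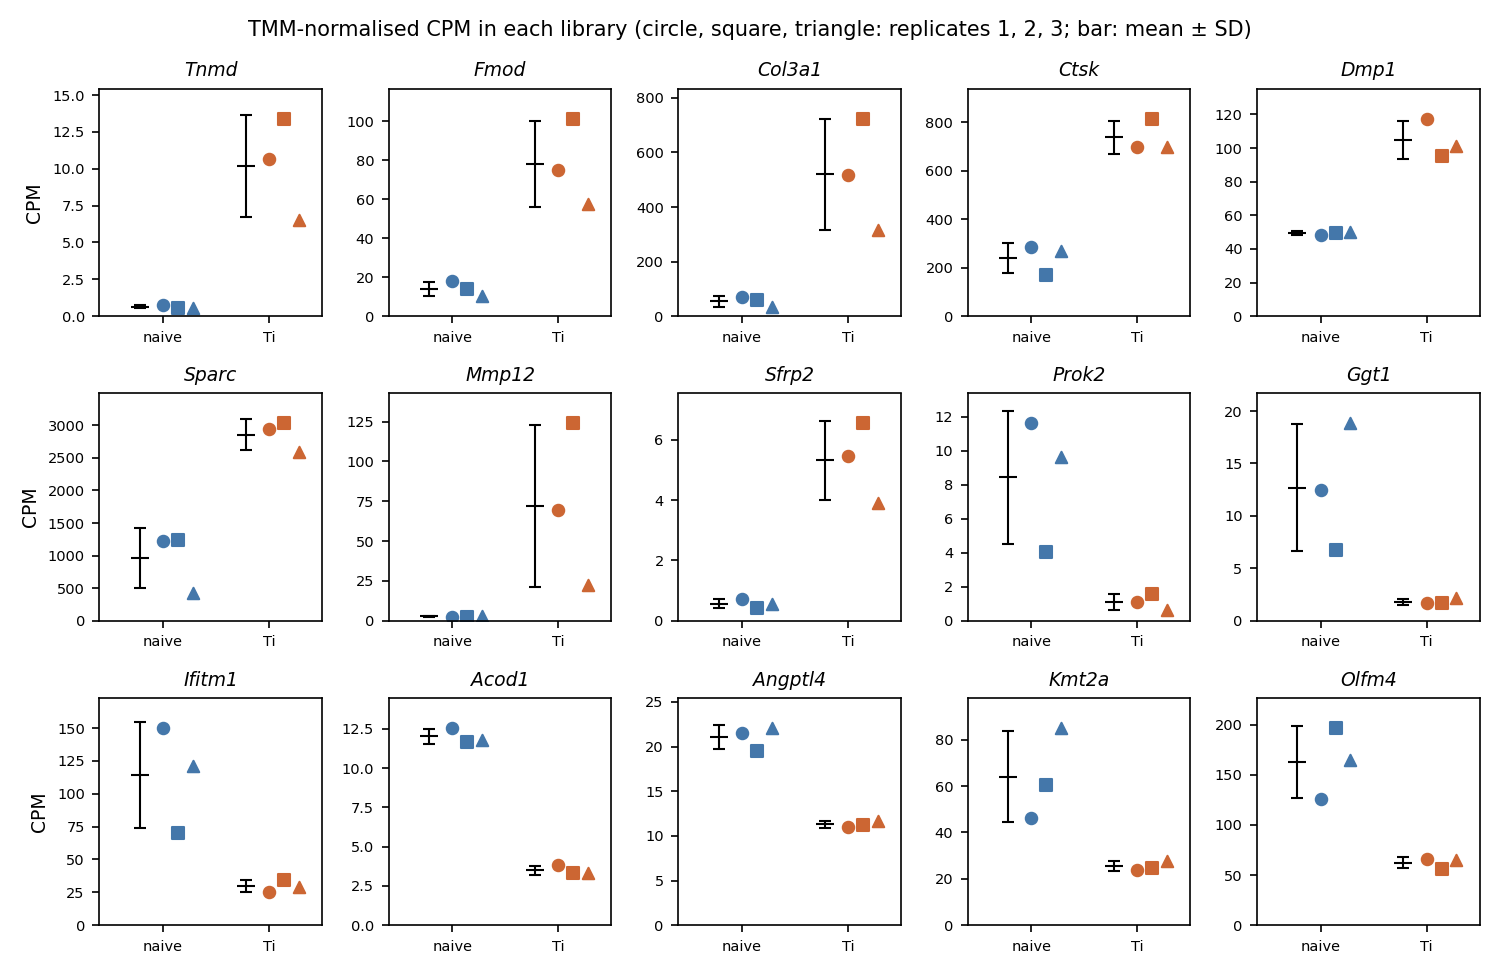
TMM-normalised CPM (vertical axes, linear from 0) of 15 genes in each naive (blue) and Ti (orange) library, with circle, square and triangle for replicates 1, 2 and 3 and the bar giving the mean ± SD over 3 libraries. In the 8 genes that rose, such as Tnmd, Ctsk and Dmp1, every Ti point lies above every naive point, and in the 7 that fell, such as Acod1 and Olfm4, every Ti point lies below.

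Of 11 fibril-forming collagen chains 8 rose, with a median of 1.46. All 11 had groups that did not overlap and were higher in Ti, against 14.3% of all tested genes. Of 25 network, fibril-associated and other chains 10 rose, with a median of 1.14. Col3a1, the chain of collagen III found in young and fibrous connective tissue, was at 71.8, 60.99 and 33.1 CPM in naive and 519, 724 and 317 CPM in Ti (log2 fold change 3.23, SE 0.388, adjusted p = 0.00214). Ti replicate 3 was again the lowest Ti library, and the groups were far apart. The 2 chains of collagen I, the main fibre of bone and tendon, rose less: Col1a2 was at 1783, 1591 and 623 CPM in naive and 4039, 3206 and 4405 CPM in Ti (log2 fold change 1.54, SE 0.332, adjusted p = 0.0239). Col1a1 was at 976, 904 and 477 CPM in naive and 2018, 1364 and 3106 CPM in Ti (log2 fold change 1.46, SE 0.375, adjusted p = 0.0417). In both, naive replicate 3 was far below the other naive libraries and Ti replicate 3 was the highest library, the reverse of its place for most risen genes. Col12a1, which coats collagen I fibrils, was at 31.4, 20.8 and 18.9 CPM in naive and 72.4, 99.96 and 59.8 CPM in Ti (log2 fold change 1.71, SE 0.226, adjusted p = 0.00325). The number of risen fibrillar chains was 1, Col3a1, without Ti replicate 1 or 2, where the other collagen list had 2. Without naive replicate 3 both lists had 4. The basement membrane chains Col4a1 and Col4a2 were at log2 fold changes of 0.27 and 0.35 and did not pass (adjusted p = 0.504 and 0.415). Lama2, a laminin chain of the basement membrane, rose by 1.05 on the log2 scale.

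Of 29 enzymes and chaperones that modify and crosslink collagen 10 rose, with a median of 0.87. Lox, the lysyl oxidase that starts crosslinking, was at 44.96, 43.8 and 22.7 CPM in naive and 124, 132 and 67.5 CPM in Ti (log2 fold change 1.54, SE 0.297, adjusted p = 0.0171). Plod2, which hydroxylates the lysines used in stable crosslinks, was at 25.8, 27.8 and 11.4 CPM in naive and 68.8, 78.8 and 43.1 CPM in Ti (log2 fold change 1.55, SE 0.314, adjusted p = 0.0207). Both had their lowest value in naive replicate 3. Pcolce, an enhancer of procollagen cleavage, rose by a log2 fold change of 0.97 and P4ha3, a prolyl hydroxylase subunit, by 2.26. Without Ti replicate 1 or 2 no gene of this list passed edgeR's test, 6 did without naive replicate 1 and 4 without naive replicate 3; with all libraries 21 were higher at an unadjusted p under 0.05, and DESeq2 called 14. Of 18 elastic fibre genes 7 rose, with a median of 0.70, among them Fbln2 (1.58, adjusted p = 0.0133) and Fbln5 (0.82, adjusted p = 0.0206), which organise elastic fibres. Of these, 1 rose without Ti replicate 2, 2 without Ti replicate 1, 3 without naive replicate 1 and 4 without naive replicate 3.

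Of 28 matrix metalloproteinases, Adamts proteases and their Timp inhibitors 8 rose, with a median of 0.65. Mmp12, the macrophage metalloelastase, was at 2.47, 2.52 and 3.23 CPM in naive and 69.5, 124 and 22.2 CPM in Ti (log2 fold change 4.71, SE 0.608, adjusted p = 0.00317), with a wide spread among the Ti values and all of them above naive. Mmp2, a gelatinase of stromal cells, was at 39.5, 35.03 and 19.6 CPM in naive and 82.6, 103 and 93.4 CPM in Ti (log2 fold change 1.57, SE 0.229, adjusted p = 0.00584). Mmp3, which encodes stromelysin, was at 0.608, 0.4203 and 0.377 CPM in naive and 5.15, 6.35 and 3.28 CPM in Ti (log2 fold change 3.37, SE 0.5801, adjusted p = 0.0121). The inhibitor gene Timp2 was at 109, 122 and 109 CPM in naive and 170.1, 227 and 179.9 CPM in Ti (log2 fold change 0.76, SE 0.144, adjusted p = 0.0167). For each of these 4 genes the groups were separate. Mmp9, a gelatinase of osteoclasts and neutrophils, was at 1089, 831 and 1396 CPM in naive and 1148, 1013 and 1567 CPM in Ti and did not pass (log2 fold change 0.17, SE 0.212, adjusted p = 0.636). The list had 3 risen genes without naive replicate 3, Ti replicate 1 or Ti replicate 2, and 5 without naive replicate 1.

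Of 25 osteoblast and bone matrix genes 15 rose, against 4.05% of all tested genes, and the median was 1.298. The groups of 24 did not overlap and were higher in Ti, against 14.3% of all tested genes. Sparc, the collagen- and mineral-binding protein osteonectin, was at 1218, 1244 and 431 CPM in naive and 2948, 3035 and 2593 CPM in Ti (log2 fold change 1.57, SE 0.329, adjusted p = 0.0228). Ibsp, which encodes bone sialoprotein, was at 271, 315 and 201 CPM in naive and 637, 702 and 465 CPM in Ti (log2 fold change 1.195, SE 0.213, adjusted p = 0.0133). Bmp3, a growth factor of bone matrix, was at 10.9, 11.7 and 6.08 CPM in naive and 25.1, 23.8 and 20.4 CPM in Ti (log2 fold change 1.27, SE 0.225, adjusted p = 0.0131). Naive replicate 3 was lowest for each. Runx2, the transcription factor that commits cells to the osteoblast lineage, did not pass, at 38.8, 36.7 and 40.97 CPM in naive and 37.9, 34.7 and 40.1 CPM in Ti (log2 fold change −0.05, SE 0.123, adjusted p = 0.831). Sp7, which encodes osterix downstream of it, rose by 1.05 (adjusted p = 0.0304). Bglap, the osteocalcin gene, was at 141, 164 and 12.4 CPM in naive and 368, 311 and 298 CPM in Ti and did not pass (log2 fold change 1.62, SE 0.611, adjusted p = 0.123). The summed level of the list was 6186, 6296 and 2805 CPM in naive and 13650, 12770 and 13850 CPM in Ti, so the low value of naive replicate 3 stood apart from the other naive libraries. The number of risen genes was 2 without Ti replicate 1 or 2 and 17 without naive replicate 2 or Ti replicate 3.

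Osteocyte genes gave 9 rises and 1 fall among 14, with a median of 1.24. Dmp1, a matrix phosphoprotein that controls mineral, was at 48.1, 49.6 and 50.3 CPM in naive and 118, 95.5 and 101.4 CPM in Ti (log2 fold change 1.09, SE 0.122, adjusted p = 0.00214). The naive values lay close together, naive replicate 3 included, and below every Ti value. Mepe, another mineral-regulating matrix protein, was at 24.3, 27.2 and 17.8 CPM in naive and 72.2, 90.4 and 54.8 CPM in Ti (log2 fold change 1.65, SE 0.218, adjusted p = 0.00325). Sost, which encodes sclerostin, was at 6.38, 11.2 and 8.17 CPM in naive and 19.4, 26.3 and 18.5 CPM in Ti (log2 fold change 1.32, SE 0.2195, adjusted p = 0.0113). Fgf23, the phosphate-lowering hormone of osteocytes, fell: it was at 1.48, 0.747 and 1.22 CPM in naive and 0.331, 0.0825 and 0.147 CPM in Ti (log2 fold change −2.61, SE 0.682, adjusted p = 0.0447); Ti replicates 2 and 3 were at or under the CPM of 3 counts. The call of Fgf23 was lost when any library but naive replicate 2 was left out, with adjusted p up to 0.189. Of 20 cartilage genes 6 rose with a median of 1.61, among them Col2a1, the collagen of cartilage, at 174, 72.6 and 82.03 CPM in naive and 382, 397 and 470.1 CPM in Ti (log2 fold change 1.93, SE 0.397, adjusted p = 0.0222), Comp (2.07) and the joint lubricant gene Prg4 (2.21). Both Comp and Prg4 are also made by tendon, and 5 of the 6 risen genes are fibrillar collagens or members of the tendon list, the exception being the cartilage transcription factor gene Sox9. Without Ti replicate 1 or 2 the counts of risen genes were 3 for osteocytes and 2 for cartilage, and without naive replicate 3 there were 3 for cartilage.

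**Figure D4:**
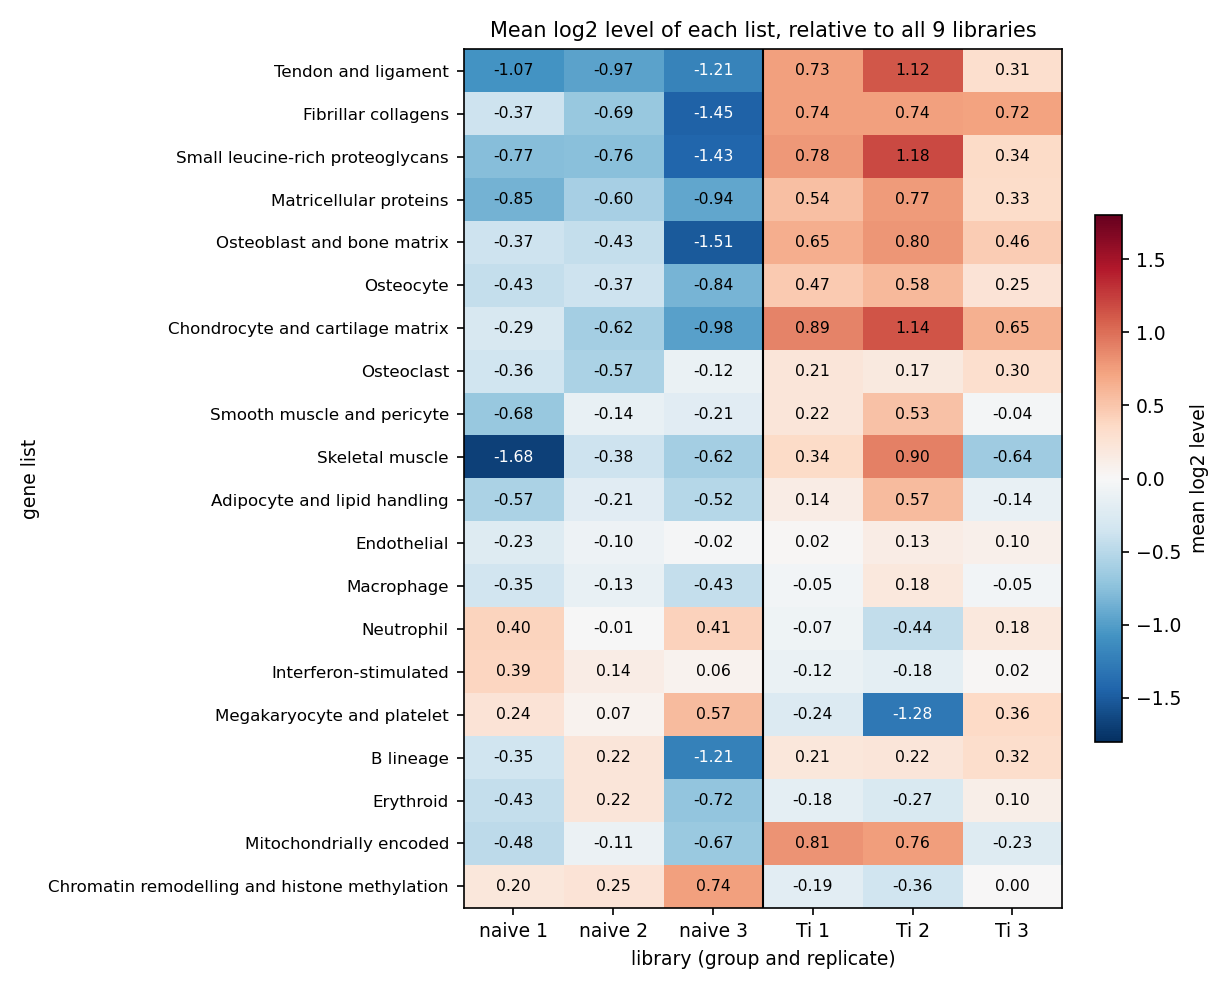
Mean log2 level of 20 gene lists (rows) in each naive and Ti library (columns), relative to each gene's mean over all 9 libraries; red is higher and blue lower, and the number in each cell is the value. The tendon list lies between −1.21 and −0.97 in naive and between 0.31 and 1.12 in Ti, whereas the skeletal muscle list overlaps between groups, with −0.38 in naive replicate 2 and −0.64 in Ti replicate 3.

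Among 19 genes of osteoclasts there were 6 rises, 13 genes without a call and a median of 0.54. Ctsk, or cathepsin K, was at 284, 170.1 and 268 CPM in naive and 698, 815 and 699 CPM in Ti (log2 fold change 1.62, SE 0.219, adjusted p = 0.00377). Acp5, the tartrate-resistant acid phosphatase used to stain osteoclasts, was at 323, 234 and 315 CPM in naive and 704, 798 and 774 CPM in Ti (log2 fold change 1.39, SE 0.209, adjusted p = 0.0065). Atp6v0d2, a proton pump subunit of osteoclasts, was at 39.5, 32.8 and 41.5 CPM in naive and 109, 118 and 70.2 CPM in Ti (log2 fold change 1.39, SE 0.221, adjusted p = 0.00888). All Ti libraries exceeded all naive ones for these genes, and naive replicate 3, low for bone matrix genes, was not low here. The fusion gene Ocstamp was at 2.32, 2.102 and 2.51 CPM in naive and 5.19, 5.897 and 8.33 CPM in Ti (log2 fold change 1.48, SE 0.245, adjusted p = 0.0109). Nfatc1, the transcription factor that drives osteoclast formation, was at 59.6, 52.1 and 86.9 CPM in naive and 62.5, 56.1 and 77.5 CPM in Ti and did not pass (log2 fold change −0.02, SE 0.191, adjusted p = 0.96). The count of risen osteoclast genes was 3 without Ti replicate 1 and 8 without Ti replicate 3.

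Signals that induce osteoclasts showed 2 rises among 16 genes and a median of 0.37. Trem2, a myeloid receptor that supports fusion, was at 10.1, 9.67 and 10.8 CPM in naive and 17.3, 28.1 and 17.7 CPM in Ti (log2 fold change 1.05, SE 0.201, adjusted p = 0.0167). Oscar, a costimulatory collagen receptor, was at 3.19, 2.15 and 4.82 CPM in naive and 7.93, 9.07 and 11.4 CPM in Ti (log2 fold change 1.48, SE 0.2899, adjusted p = 0.0183). Tnfsf11, which encodes RANKL, the main osteoclast-inducing cytokine, was at 3.23, 2.33 and 3.48 CPM in naive and 5.996, 5.57 and 3.87 CPM in Ti and did not pass (log2 fold change 0.77, SE 0.385, adjusted p = 0.222). Its decoy receptor gene Tnfrsf11b was at 5.43, 14.7 and 5.74 CPM in naive and 22.99, 29.3 and 9.36 CPM in Ti and did not pass either (log2 fold change 1.26, SE 0.496, adjusted p = 0.135). The groups did not overlap for Tnfsf11 and did for Tnfrsf11b. Without Ti replicate 2 neither gene of the list passed (7 were higher at an unadjusted p under 0.05 with all libraries, DESeq2 called 4 and limma-voom 3), and without Ti replicate 3 the count was 6. Among 32 cathepsins and proton pump subunits of lysosomes 4 rose, Ctsk, Atp6v0d2, Ctsf (0.74) and Ctsl (0.74), and 1 fell, the neutrophil protease gene Ctsg (−1.07). Without Ti replicate 1 the rises were down to 1, that of Ctsk, and the fall of Ctsg was lost without naive replicate 1 or 3 or Ti replicate 1 or 2.

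Of 26 macrophage genes 6 rose and 2 fell, with a median of 0.26. With transcript length offsets 4 rose and none fell, and on log2(FPKM + 1) values 5 rose and none fell. Cd68, a lysosomal protein of phagocytes, was at 67.7, 71.3 and 74.2 CPM in naive and 99.99, 105 and 114 CPM in Ti (log2 fold change 0.58, SE 0.118, adjusted p = 0.0207). Folr2, a folate receptor of tissue macrophages, was at 0.645, 1.12 and 0.293 CPM in naive and 2.83, 4.04 and 2.302 CPM in Ti (log2 fold change 2.16, SE 0.439, adjusted p = 0.0207). Lyve1, a hyaluronan receptor of perivascular macrophages and lymphatic vessels, was at 2.92, 3.41 and 2.01 CPM in naive and 6.51, 7.51 and 5.44 CPM in Ti (log2 fold change 1.22, SE 0.256, adjusted p = 0.0228). The 2 genes that fell encode scavenger and sialic acid receptors of resident marrow macrophages: Siglec1 was at 10.1, 13.2 and 14.3 CPM in naive and 6.14, 6.64 and 8.33 CPM in Ti (log2 fold change −0.83, SE 0.201, adjusted p = 0.0351). Cd163 was at 17.3, 21.8 and 17.9 CPM in naive and 11.5, 8.45 and 12.5 CPM in Ti (log2 fold change −0.81, SE 0.2097, adjusted p = 0.043). The summed level of the 26 genes overlapped between the groups, from 4392 to 5517 CPM in naive and 4438 to 4770 CPM in Ti. Without Ti replicate 2 none of the 6 risen genes passed edgeR's test, and without naive replicate 1 or 3 or Ti replicate 1 there was 1; with all libraries 8 were higher at an unadjusted p under 0.05, and DESeq2 called 6. The 2 falls were not called without any one of naive replicates 2 and 3 and Ti replicates 1 and 2.

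Of 29 tested genes of inflammatory cytokines and their receptors 3 fell, and all 3 are receptors: Il1rap, the accessory chain of the interleukin 1 receptor, was at 47.4, 38.2 and 48.3 CPM in naive and 25.97, 25.6 and 21.8 CPM in Ti (log2 fold change −0.87, SE 0.151, adjusted p = 0.0121). Il4ra was at 86.95, 64.6 and 128 CPM in naive and 42.2, 48.8 and 49.1 CPM in Ti (log2 fold change −0.9958, SE 0.206, adjusted p = 0.0224). The decoy receptor gene Il1r2 was at 53.3, 68.9 and 119.7 CPM in naive and 37.1, 34.4 and 46.98 CPM in Ti (log2 fold change −1.03, SE 0.2596, adjusted p = 0.039). None of the 29 rose in edgeR's test, 4 had a positive fold change with an unadjusted p under 0.05, DESeq2 called 2 higher and limma-voom 0. The falls were down to 1, that of Il1rap, without Ti replicate 1 or 2, and 2 genes rose without Ti replicate 3. Tnf was at 4.59, 2.85 and 4.57 CPM in naive and 1.605, 3.83 and 2.45 CPM in Ti (log2 fold change −0.6022, SE 0.355, adjusted p = 0.295). Il6 was at 1.101, 0.701 and 0.377 CPM in naive and 0.708, 0.289 and 0.343 CPM in Ti (log2 fold change −0.71, SE 0.607, adjusted p = 0.474). Il1b ranged from 16.9 to 98.3 CPM in naive and from 38.9 to 54.97 CPM in Ti, so the groups overlapped. Of 35 genes of Toll-like receptor and NF-kappa B signalling 27 had negative fold changes, the groups of 11 did not overlap and were lower in Ti (12.9% of all tested genes were), and 1 fell, Tlr6, at 17.8, 16.1 and 17.7 CPM in naive and 9.58, 11.2 and 10.6 CPM in Ti (log2 fold change −0.72, SE 0.159, adjusted p = 0.0258). No gene of that list was called without naive replicate 1 or 3 or Ti replicate 1 or 2, and 3 were without naive replicate 2 or Ti replicate 3; with all libraries 9 were lower at an unadjusted p under 0.05, and DESeq2 called 3.

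Chemokine genes and their receptors gave 4 rises (Ccl21a, Cx3cr1, Ackr3 and Ackr4) and 1 fall among 47. These shares were 8.51% and 2.13%, where 4.05% of all tested genes rose and 2.39% fell, so the share of falls was near that of all genes. Ccl21a, a chemokine of lymphatic vessels, was at 2.01, 1.68 and 1.26 CPM in naive and 13.6, 19.3 and 11.4 CPM in Ti (log2 fold change 3.16, SE 0.346, adjusted p = 0.00212). Its near-identical copy Ccl21b, which is not in the list, rose by 3.62 on the log2 scale. Ackr3, a scavenging receptor of the chemokine Cxcl12, was at 5.62, 8.78 and 3.65 CPM in naive and 17.2, 22.5 and 15.04 CPM in Ti (log2 fold change 1.61, SE 0.287, adjusted p = 0.0133). Cxcr2, the main chemokine receptor of neutrophils, fell: it was at 386, 314 and 384 CPM in naive and 263, 215 and 268 CPM in Ti (log2 fold change −0.54, SE 0.141, adjusted p = 0.0447). The mean of naive was 1.45-fold that of Ti, and the groups did not overlap. C3ar1, the receptor of the complement fragment C3a, rose: it was at 5.32, 8.5 and 5.32 CPM in naive and 16.6, 22.1 and 10.97 CPM in Ti (log2 fold change 1.38, SE 0.263, adjusted p = 0.0167). Without Ti replicate 1 or 2 the count of risen chemokine genes was 1 (2 without naive replicate 3), and C3ar1 did not pass without naive replicate 1 or 3 or without Ti replicate 1 or 2.

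The interferon-stimulated list had 5 falls among 34 genes and 4 positive fold changes, with a median of −0.17. Acod1, the enzyme that makes itaconate in activated myeloid cells, was at 12.6, 11.7 and 11.8 CPM in naive and 3.82, 3.34 and 3.33 CPM in Ti (log2 fold change −1.78, SE 0.179, adjusted p = 0.00166). Both groups were tight, and the mean of naive was 3.43-fold that of Ti. Ifitm1, an interferon-induced membrane protein, was at 150.3, 70.5 and 121 CPM in naive and 25.4, 34.5 and 29.3 CPM in Ti (log2 fold change −1.94, SE 0.233, adjusted p = 0.00214), and its relatives Ifitm2 and Ifitm6 fell by 0.71 and 0.93 on the log2 scale. Oas2, a sensor of double-stranded RNA, was at 18.4, 14.8 and 19.3 CPM in naive and 7.88, 10.7 and 7.94 CPM in Ti (log2 fold change −0.98, SE 0.184, adjusted p = 0.0167). The count of fallen genes was 2 without Ti replicate 1, 3 without naive replicate 1 or 3 or Ti replicate 2, and 7 without Ti replicate 3.

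Neutrophil genes fell in 3 of 23 cases, Cxcr2 among them, with a median of −0.32. Prtn3 and Ctsg encode proteases of the primary granules that are made in immature neutrophils. Ctsg was at 610, 365 and 642 CPM in naive and 254, 208 and 310.3 CPM in Ti (log2 fold change −1.07, SE 0.228, adjusted p = 0.0239). Prtn3 was at 1046, 601 and 1329 CPM in naive and 320.3, 283 and 567 CPM in Ti (log2 fold change −1.35, SE 0.302, adjusted p = 0.0265). Naive replicate 2 was the lowest naive library for both, still above all Ti libraries, and the summed level of the whole list overlapped between groups (42510 to 56390 CPM in naive, 36110 to 47540 CPM in Ti). None of the 3 was called without naive replicate 1 or 3 or Ti replicate 1 or 2; with all libraries 8 list genes were lower at an unadjusted p under 0.05, and DESeq2 called 4. Other granulocyte genes fell outside this list and were named after their values were seen. Olfm4, a protein of the specific granules of a subset of neutrophils, was at 126, 197 and 165 CPM in naive and 65.9, 55.9 and 64.8 CPM in Ti (log2 fold change −1.39, SE 0.168, adjusted p = 0.00214). Slfn4, a schlafen gene of myeloid cells, was at 206, 189 and 256.5 CPM in naive and 95.8, 94.2 and 80.6 CPM in Ti (log2 fold change −1.27, SE 0.166, adjusted p = 0.00325). Csf2rb, the shared receptor chain of the GM-CSF family, was at 235, 168 and 351 CPM in naive and 93.3, 84.95 and 117 CPM in Ti (log2 fold change −1.35, SE 0.229, adjusted p = 0.0115). Olfm4 and Slfn4 passed in each of the 6 fits with 1 library left out.

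Of 19 mast cell, eosinophil and basophil genes 3 rose and 2 fell, 15 had negative fold changes and the median was −0.42. The 3 that rose encode mast cell proteases, and of these Mcpt4 was at 0.266, 0.4203 and 0.168 CPM in naive and 2.502, 3.05 and 1.67 CPM in Ti (log2 fold change 3.07, SE 0.604, adjusted p = 0.0183). Cma1 was at 0.266, 0.374 and 0.461 CPM in naive and 2.17, 3.01 and 1.42 CPM in Ti (log2 fold change 2.58, SE 0.6102, adjusted p = 0.0329). Tpsb2 was at 0, 0.2802 and 0.209 CPM in naive and 1.18, 2.47 and 1.18 CPM in Ti (log2 fold change 3.32, SE 0.695, adjusted p = 0.0228). Their naive levels were of few counts, and Tpsb2 had 0 in naive replicate 1. These 3 were among only 4 tested genes of the list with positive fold changes, and no other mast cell gene of the list rose. Of the eosinophil genes, Siglecf, a sialic acid receptor, was at 24.5, 19.4 and 25.3 CPM in naive and 11.5, 10.97 and 13.2 CPM in Ti (log2 fold change −0.96, SE 0.158, adjusted p = 0.0108). Epx, a granule peroxidase, was at 359, 324 and 435 CPM in naive and 182, 113 and 259.7 CPM in Ti (log2 fold change −1.01, SE 0.255, adjusted p = 0.0389), and both fell. Without Ti replicate 1 or 2 none of these 5 genes passed edgeR's test, no rise passed without naive replicate 3, and 5 genes of the list fell without Ti replicate 3; with all libraries 3 genes of the list were higher and 8 lower at an unadjusted p under 0.05, and DESeq2 called 3 and 7. Lymphoid lists held single rises, Cd72 (0.95) among 21 B lineage genes and Klrd1 (0.999) among 25 T and natural killer cell genes. Both shares were near the 4.05% of all tested genes that rose. Among 11 plasma cell genes 1 rose, Sdc1, also a proteoglycan of other tissues. It was at 19.02, 21.8 and 18.98 CPM in naive and 35.9, 42.6 and 37.2 CPM in Ti (log2 fold change 0.95, SE 0.147, adjusted p = 0.00753). All 21 B lineage genes had positive fold changes, and the list's summed level was 571 CPM in naive replicate 3 against 852 and 1246 CPM in the other naive libraries and 1212 to 1580 CPM in Ti. Without naive replicate 2, the highest naive library, 11 B lineage genes passed. The fold changes of the 18 megakaryocyte genes were negative throughout. No such gene passed edgeR's test, 1 had an unadjusted p under 0.05, and DESeq2 and limma-voom called 0; the summed level was 966 CPM in Ti replicate 2 and 1842 to 2748 CPM in the 5 other libraries. Of 22 erythroid genes none passed, none had an unadjusted p under 0.05, and DESeq2 and limma-voom called 0.

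Secreted modulators of Wnt, the pathway that drives bone formation, rose in 6 of 17 cases with a median of 1.32. The risen genes were Sost and members of the Sfrp and Dickkopf families. Sfrp2, which binds Wnt ligands, was at 0.722, 0.4203 and 0.545 CPM in naive and 5.48, 6.56 and 3.92 CPM in Ti (log2 fold change 3.22, SE 0.414, adjusted p = 0.00317). Dkk3, of the Dickkopf family, was at 3.49, 2.75 and 2.14 CPM in naive and 13.6, 20.4 and 7.35 CPM in Ti (log2 fold change 2.302, SE 0.344, adjusted p = 0.00634). Dkk1, which blocks the Wnt coreceptor, was at 4.14, 4.58 and 1.97 CPM in naive and 13.2, 15.4 and 6.27 CPM in Ti (log2 fold change 1.71, SE 0.362, adjusted p = 0.0233). Frzb, or sFRP3, was at 1.37, 2.52 and 1.89 CPM in naive and 15.6, 28.6 and 7.25 CPM in Ti (log2 fold change 3.16, SE 0.614, adjusted p = 0.0173), with Sost and Sfrp5 (1.85) the others. The R-spondin gene Rspo2, which encodes an activator of the pathway, was at 1.29, 2.75 and 0.168 CPM in naive and 7.08, 6.52 and 5.19 CPM in Ti and did not pass (log2 fold change 2.17, SE 0.589, adjusted p = 0.0507). Of 42 Wnt ligands, receptors and targets 3 rose, Wnt5b (1.47), Wnt16 (2.37) and the R-spondin receptor gene Lgr6 (1.53), with a median of 0.49. Without Ti replicate 2 the counts were 2 modulators and 0 ligands, receptors or targets (16 were higher at an unadjusted p under 0.05 with all libraries, and DESeq2 called 7), and without Ti replicate 3 both were 9. There were 3 modulators without naive replicate 3 or Ti replicate 1.

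Of 46 genes of BMP, TGF-beta and activin signalling 8 rose and 1 fell, with a median of 0.47. The TGF-beta ligand gene Tgfb2 was at 2.62, 2.85 and 2.43 CPM in naive and 8.21, 11.4 and 5.24 CPM in Ti (log2 fold change 1.66, SE 0.311, adjusted p = 0.0167). Tgfb3 was at 8.05, 10.5 and 6.62 CPM in naive and 18.2, 31.01 and 15.3 CPM in Ti (log2 fold change 1.36, SE 0.257, adjusted p = 0.0167). Both rose, whereas Tgfb1, the form most abundant in bone matrix, had a log2 fold change of −0.38 and did not pass (adjusted p = 0.385). Acvr1b, an activin receptor, fell by 0.82 on the log2 scale (adjusted p = 0.046). No gene of this list was called without Ti replicate 1 or 2 (with all libraries 21 were higher at an unadjusted p under 0.05, and DESeq2 called 14). Of its genes 4 rose without naive replicate 1, 1 without naive replicate 3 and 17 without Ti replicate 3. In the insulin-like growth factor list 6 of 16 rose, led by Htra1, a protease that cuts IGF-binding proteins, at 10.3, 11.3 and 9.64 CPM in naive and 39.2, 48.8 and 28.7 CPM in Ti (log2 fold change 1.901, SE 0.23, adjusted p = 0.00214). The binding protein gene Igfbp6 was at 8.54, 6.398 and 5.99 CPM in naive and 17.2, 26.3 and 20.7 CPM in Ti (log2 fold change 1.61, SE 0.267, adjusted p = 0.0108). Igf1 was at 34.4, 43.8 and 18.5 CPM in naive and 70.96, 74.6 and 34.7 CPM in Ti and did not pass (log2 fold change 0.9004, SE 0.314, adjusted p = 0.102). Leaving out either of naive replicates 1 and 3 or Ti replicates 1 and 2 left 2 risen genes of that list, Htra1 and Igfbp6.

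Of 42 integrins and focal adhesion adaptors 6 rose, although the list's median was −0.07. Itgav, the αV chain that pairs with several β chains to bind matrix proteins with an RGD motif, was at 56.5, 42.5 and 52.8 CPM in naive and 124, 108 and 79.8 CPM in Ti (log2 fold change 1.04, SE 0.189, adjusted p = 0.0139). Fermt2, an adaptor that activates integrins, was at 17.7, 21.9 and 13.2 CPM in naive and 42.8, 54.3 and 28.9 CPM in Ti (log2 fold change 1.26, SE 0.2303, adjusted p = 0.0142). Itgb8, an αV partner, was at 0.683, 0.467 and 0.545 CPM in naive and 1.84, 1.897 and 1.96 CPM in Ti (log2 fold change 1.73, SE 0.382, adjusted p = 0.0255). The leukocyte integrin gene Itgam was at a log2 fold change of −0.46 and the platelet integrin gene Itgb3 at −0.56, and neither passed (adjusted p = 0.24 and 0.404). No integrin or adaptor was called without Ti replicate 1 or 2, 3 were without naive replicate 1 and 2 without naive replicate 3; with all libraries 10 were higher at an unadjusted p under 0.05, and DESeq2 called 8. Among 56 axon guidance genes, which also steer vessels and nerves in bone, 5 rose, led by Sema3c at 2.73, 3.92 and 2.51 CPM in naive and 13.6, 16.2 and 7.94 CPM in Ti (log2 fold change 2.05, SE 0.299, adjusted p = 0.00584). Sema6b, the one fall, was at 15.9, 12 and 26.9 CPM in naive and 3.07, 4.45 and 6.56 CPM in Ti (log2 fold change −1.96, SE 0.324, adjusted p = 0.0108). The count of risen genes in that list ranged from 1 without Ti replicate 1 or 2, over 2 without naive replicate 1 or 3, to 11 without Ti replicate 3.

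Muscle and vessel wall genes held a few calls each. Of the 5 skeletal muscle genes that rose, Tnni1 encodes the troponin I of slow fibres and was at 0.03797, 0.0467 and 0.126 CPM in naive and 0.803, 0.742 and 0.441 CPM in Ti (log2 fold change 3.14, SE 0.529, adjusted p = 0.0115). It had 44 counts in the 3 Ti libraries against 5 in naive, a ratio of 9.57 with an exact 95% interval of 3.81 to 30.9 that covers counting error only. In the libraries given I-OG it was at 5.50, 6.46 and 4.82 CPM, above both groups. Fndc5, the gene of irisin itself, was at 0.532, 2.75 and 1.55 CPM in naive and 5.71, 6.43 and 1.76 CPM in Ti and did not pass (log2 fold change 1.54, SE 0.547, adjusted p = 0.107). Mylpf, a myosin light chain of fast fibres, was at 80.1, 199 and 98.8 CPM in naive and 477, 616 and 176 CPM in Ti (log2 fold change 1.75, SE 0.4395, adjusted p = 0.0389), with Ti replicate 3 inside the naive range. Of 17 smooth muscle and pericyte genes 4 rose, among them Acta2, or smooth muscle actin, at 8.66, 14.9 and 10.7 CPM in naive and 26.96, 38.1 and 23.2 CPM in Ti (log2 fold change 1.37, SE 0.258, adjusted p = 0.0167). The pericyte gene Rgs5 was at 52.7, 83.2 and 48.4 CPM in naive and 190.3, 243 and 90.4 CPM in Ti (log2 fold change 1.51, SE 0.318, adjusted p = 0.0228). Of 25 endothelial genes 2 rose, Ly6c1 (0.58) and Clec14a (0.72), with a median of 0.23. Skeletal muscle gave 1 risen gene without Ti replicate 1 and 22 without Ti replicate 3, and neither smooth muscle nor endothelial genes had a call without naive replicate 3 or Ti replicate 2 (8 and 9 were higher at an unadjusted p under 0.05 with all libraries, and DESeq2 called 5 and 3).

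Of 26 adipocyte and lipid handling genes 3 rose and 2 fell, with a median of 0.74. Angptl4, which encodes an inhibitor of lipoprotein lipase, was at 21.5, 19.5 and 22.1 CPM in naive and 10.9, 11.2 and 11.7 CPM in Ti (log2 fold change −0.899, SE 0.133, adjusted p = 0.00626). The Ti values lay close together, and in the libraries given I-OG the gene was at 22.1, 24.6 and 23 CPM. Lpl, the lipase itself, rose, at 68.5, 86.9 and 54.9 CPM in naive and 221, 266 and 119 CPM in Ti (log2 fold change 1.53, SE 0.297, adjusted p = 0.0173), as did Scd1, the fatty acid desaturase of fat tissue, at 149, 352 and 101 CPM in naive and 1021, 1247 and 458 CPM in Ti (log2 fold change 2.18, SE 0.515, adjusted p = 0.0325). Pparg, the transcription factor of fat cell formation, rose by 0.8019 on the log2 scale. Lipg, the endothelial lipase gene, fell, at 26.6, 19.3 and 110.5 CPM in naive and 6.37, 5.73 and 7.45 CPM in Ti (log2 fold change −3.002, SE 0.541, adjusted p = 0.0138), with naive replicate 3 far above every other library. No lipid gene rose in edgeR's test without naive replicate 3 or Ti replicate 1 or 2 (15 were higher at an unadjusted p under 0.05 with all libraries, and DESeq2 called 7), 10 did without naive replicate 2, and the fall of Lipg was lost without Ti replicate 1 or 2. In the nerve list Pmp22, a myelin protein gene, rose (1.05, adjusted p = 0.0183), as did Gldn, with 95 counts in Ti against 5 in naive, a ratio of 20.7 (exact 95% interval 8.55 to 65.1). Both calls were lost without naive replicate 1 or 3 or Ti replicate 1 or 2, and 5 genes of that list rose without Ti replicate 3. The 13 mitochondrially encoded genes all had positive fold changes, with mt-Nd2 and mt-Nd6 called, and the list summed to 52360, 67810 and 42010 CPM in naive and to 102000, 118200 and 57970 CPM in Ti. Neither call held without naive replicate 1 or 3 or Ti replicate 1 or 2, and 12 of the 13 were called without Ti replicate 3; with all libraries 12 were higher at an unadjusted p under 0.05, and DESeq2 called 12. Their summed level in Ti replicate 3 lay within the naive range, as it did for skeletal muscle.

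Of 19 circadian genes 5 rose, with 2 left without naive replicate 1, naive replicate 3 or Ti replicate 1 and 1 without Ti replicate 2. Dbp, a transcription factor under direct clock control, was at 10.97, 9.34 and 9.18 CPM in naive and 27.4, 39.8 and 28.8 CPM in Ti (log2 fold change 1.702, SE 0.227, adjusted p = 0.00342). Nr1d1, the repressor REV-ERBα, was at 6.61, 5.56 and 8.67 CPM in naive and 12.7, 20.5 and 14.2 CPM in Ti (log2 fold change 1.18, SE 0.224, adjusted p = 0.0167). Bhlhe41 was at 2.24, 6.17 and 3.23 CPM in naive and 11.2, 16.4 and 8.28 CPM in Ti (log2 fold change 1.64, SE 0.3505, adjusted p = 0.0238). The sources used here do not state the time of day of sampling, and a group difference in that time cannot be told apart from the treatment. Among 25 oxidative stress genes 4 rose, Sod3 (1.53), Gpx3 (1.08), Mt3 (1.89) and Mt2 (0.91), which encode extracellular antioxidant enzymes and metal-binding metallothioneins. Leaving out any single library removed the call of Mt2, and none of the 4 passed without naive replicate 3 or Ti replicate 1 or 2 (10 were higher at an unadjusted p under 0.05 with all libraries, and DESeq2 called 5). Of 43 cell cycle genes 2 rose and 1 fell, 34 had negative fold changes and the median was −0.20. The shares called, 4.65% risen and 2.33% fallen, were near the 4.05% and 2.39% of all tested genes. Cdkn1c, an inhibitor of the cell cycle, was at 4.37, 4.67 and 5.03 CPM in naive and 13.97, 19.01 and 11.9 CPM in Ti (log2 fold change 1.67, SE 0.236, adjusted p = 0.00497) and was called in all 6 fits with 1 library left out. Ccnd1, the cyclin that drives entry into the cycle, rose, at 21.3, 18.96 and 11.1 CPM in naive and 29.8, 33.9 and 25.9 CPM in Ti (log2 fold change 0.8019, SE 0.216, adjusted p = 0.0493), and lost its call without naive replicate 2 or 3 or Ti replicate 1 or 2. Foxm1, a driver of mitosis, fell by 0.8022 on the log2 scale (adjusted p = 0.036). Its call was lost without naive replicate 1 or 3 or Ti replicate 1 or 2, and 5 genes of the list fell without Ti replicate 3.

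Among genes named for the size of their fold change (called, mean FPKM of at least 1, groups that did not overlap), the largest rises outside the tendon, matrix and Wnt groups included C1qtnf3 and C1qtnf2, relatives of adiponectin. C1qtnf3 was at 1.06, 0.514 and 0.0838 CPM in naive and 9.35, 10.8 and 4.21 CPM in Ti (log2 fold change 3.84, SE 0.733, adjusted p = 0.0167). C1qtnf2 was at 0.304, 0.1401 and 0.293 CPM in naive and 2.17, 3.17 and 1.23 CPM in Ti (log2 fold change 3.11, SE 0.537, adjusted p = 0.0121). Crabp2, a carrier of retinoic acid, had 69 counts in Ti against 5 in naive, a ratio of 15.01 (exact 95% interval 6.13 to 47.7), and kept its call only without Ti replicate 3. Commd1b and Pagr1a were at log2 fold changes of 5.77 and 3.88 and are uncertain. After Lipg the largest fall by the same rule was that of Prok2, a secreted prokineticin of myeloid cells, at 11.6, 4.06 and 9.64 CPM in naive and 1.09, 1.57 and 0.637 CPM in Ti (log2 fold change −2.93, SE 0.428, adjusted p = 0.00584). Ggt1, an enzyme of glutathione breakdown, was at 12.5, 6.72 and 18.9 CPM in naive and 1.65, 1.65 and 2.15 CPM in Ti (log2 fold change −2.803, SE 0.342, adjusted p = 0.00219). For both genes every naive library was above every Ti library, and the spread was wider in naive than in Ti. Kcna3, a potassium channel of leukocytes, was at 3.83, 3.69 and 5.698 CPM in naive and 1.09, 0.742 and 1.27 CPM in Ti (log2 fold change −2.09, SE 0.523, adjusted p = 0.0387). Tgm1, a transglutaminase, was at 10.4, 5.698 and 13.1 CPM in naive and 1.37, 2.23 and 3.58 CPM in Ti (log2 fold change −2.03, SE 0.369, adjusted p = 0.0139). Nrg1, a ligand of ErbB receptors, was at 7.101, 4.67 and 10.01 CPM in naive and 2.69, 2.31 and 1.96 CPM in Ti (log2 fold change −1.64, SE 0.293, adjusted p = 0.0133). Prok2 and Ggt1 passed in all 6 fits with 1 library left out, C1qtnf3, C1qtnf2, Tgm1 and Nrg1 did not pass without Ti replicate 1 or 2, and Kcna3 failed without these and without naive replicates 1 or 3.

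Promoters of 684 of the 914 called genes are in a RefSeq table for the mouse build GRCm38.p6, which gives 250 bases before to 50 bases after each start. Those of Mmp12 and Tnmd, after Commd1b and its uncertain counts the largest rises by the naming rule, and of Prok2, among the largest falls, are shown because these genes head the comparison; capitals mark the AP-1 motif TGANTCA, the TATA box TATAAA and the E-box CANNTG on either strand.
Mmp12, first promoter: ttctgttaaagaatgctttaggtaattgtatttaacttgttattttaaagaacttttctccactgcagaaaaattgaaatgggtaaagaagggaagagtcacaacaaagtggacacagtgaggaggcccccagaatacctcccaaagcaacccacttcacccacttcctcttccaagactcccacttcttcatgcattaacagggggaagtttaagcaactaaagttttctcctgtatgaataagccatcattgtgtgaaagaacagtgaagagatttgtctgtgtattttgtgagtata
Mmp12, second promoter: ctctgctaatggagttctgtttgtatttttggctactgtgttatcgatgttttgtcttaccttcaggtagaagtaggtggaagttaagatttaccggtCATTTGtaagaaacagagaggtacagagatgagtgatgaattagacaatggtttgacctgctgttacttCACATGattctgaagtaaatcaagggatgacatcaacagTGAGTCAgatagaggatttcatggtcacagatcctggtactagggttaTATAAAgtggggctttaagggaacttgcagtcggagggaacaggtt
Tnmd: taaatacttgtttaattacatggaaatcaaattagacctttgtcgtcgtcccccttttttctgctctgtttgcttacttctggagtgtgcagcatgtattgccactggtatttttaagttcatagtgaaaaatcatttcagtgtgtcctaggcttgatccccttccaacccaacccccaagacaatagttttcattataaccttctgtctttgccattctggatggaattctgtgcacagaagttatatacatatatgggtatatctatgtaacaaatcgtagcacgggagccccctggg
Prok2: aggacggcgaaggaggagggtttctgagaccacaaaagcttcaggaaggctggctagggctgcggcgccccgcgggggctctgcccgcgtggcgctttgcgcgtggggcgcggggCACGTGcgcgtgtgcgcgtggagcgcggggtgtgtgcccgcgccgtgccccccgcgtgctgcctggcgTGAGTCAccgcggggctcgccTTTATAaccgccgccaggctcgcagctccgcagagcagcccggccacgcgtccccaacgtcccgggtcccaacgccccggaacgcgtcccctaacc
The Mmp12 windows are chr9:7344147-7344446 for the first and chr9:7347124-7347423 for the second of its 2 promoters, both on the plus strand, the Tnmd window chrX:133850758-133851057 on the plus strand, and the Prok2 window chr6:99726343-99726642 on the minus strand. The first Mmp12 window and the Tnmd window held none of the 3 motifs. The second Mmp12 window and that of Prok2 each held 1 AP-1 motif and 1 TATA box. The TATA match lay 5 bases after the start in Mmp12 and before the start in Prok2. Over all promoters of tested genes the AP-1 motif was in 5.59%, and in 53 of 528 promoters of genes that rose and 27 of 328 of genes that fell. The TATA box was in 7.81% of all, 12.5% of the risen and 9.45% of the fallen. For the E-box the shares were 64.9%, 66.7% and 63.1%. A match of letters is a description of the sequence and not a binding site.

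Of 41 genes of chromatin remodelling and histone methylation 9 fell and 32 did not pass, 40 had negative fold changes, and the median was −0.57. The groups of 26 did not overlap and were lower in Ti, against 12.9% of all tested genes. Kmt2a, the histone methyltransferase MLL1, was at 46.3, 60.4 and 85.2 CPM in naive and 23.9, 24.7 and 27.8 CPM in Ti (log2 fold change −1.33, SE 0.233, adjusted p = 0.0127). Its relative Kmt2d was at 49.5, 63.9 and 122 CPM in naive and 22.2, 21.9 and 33.95 CPM in Ti (log2 fold change −1.59, SE 0.306, adjusted p = 0.0167). Setd5, of the same domain family, was at 80.4, 78.8 and 108 CPM in naive and 52.2, 48.1 and 54.7 CPM in Ti (log2 fold change −0.79, SE 0.153, adjusted p = 0.0173). Naive replicate 3 was the highest library in each case. Ash1l, Chd2, Chd7, Chd8, Nsd1 and Kmt2c also fell, by 0.70 (Nsd1) to 1.19 (Chd7) on the log2 scale. No gene of the list was called without Ti replicate 1 or 2, 4 were called without naive replicate 3 and 20 without Ti replicate 3; with all libraries 32 were lower at an unadjusted p under 0.05, and DESeq2 called 24. The transcripts of these genes are long, with a median of 6521 bases against 2717 bases over all genes tested.

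Transcript length moved with the comparison. Across the 14211 genes, which are not independent replicates, the fold change and the length had a Spearman rho of −0.24. The genes were split into 10 bins of equal size by length. In the shortest bin the median log2 fold change was 0.22 and 13 genes (0.914%) fell. In the longest bin, of 5769 bases or more, it was −0.20 and 140 genes (9.85%) fell. The share of genes that rose was 4.43% in the shortest and 3.38% in the longest bin. Genes that fell had a median length of 4928 bases and genes that rose 2589 bases. With an offset in each library that removes the trend of counts on length, 834 genes passed, 553 higher and 281 lower, and 9 chromatin genes fell with a list median of −0.39. The 11 fibrillar collagens had a median length of 5756 bases, and 9 of them rose with the offsets. Measures of RNA integrity were not used here, and their part in the length relation was not tested.

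**Figure D5:**
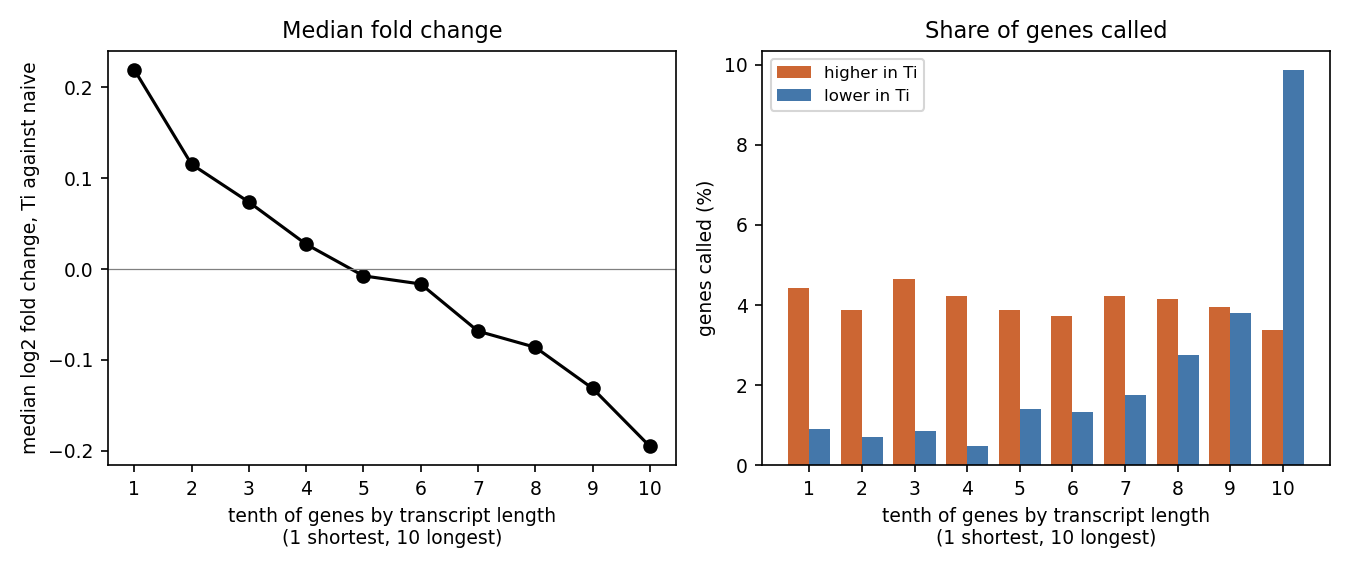
Left, median log2 fold change of Ti against naive in each of 10 bins of tested genes by transcript length (1 shortest, 10 longest). Right, percent of genes in each bin that rose (orange) or fell (blue). The median declines from 0.22 to −0.20, and the share that fell grows from 0.914% to 9.85%, while the share that rose is 4.43% in the first and 3.38% in the last bin.

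Per length, in FPKM (fragments scaled by transcript length and library total), the transcripts that gained most among called genes were mt-Nd2, from 1539 to 2741 FPKM on average, Sparc, from 463 to 1297 FPKM, mt-Nd6, from 598 to 1088 FPKM, and Col1a2, from 264 to 734 FPKM (n = 3 libraries a group). Both mitochondrial calls were lost in 4 of the 6 fits with 1 library left out, as given above. The muscle genes Mylpf and Tpm1 were next with Acp5 and Ctsk, which went from 229 to 566 FPKM and from 170.1 to 493 FPKM. Col3a1 went from 14.9 ± 7.19 to 124 ± 56.2 FPKM (SD). Larger gains were not called, among them those of the globin gene Hbb-bs, from 47000 to 58080 FPKM (adjusted p = 0.547), and of mt-Co3, from 11090 to 19880 FPKM (adjusted p = 0.117). Among called genes the largest losses were those of Prtn3, from 1039 to 386 FPKM, Ifitm6, from 1125 to 558 FPKM, Ctsg, from 575 to 260 FPKM, Ifitm2, from 524 to 303 FPKM, Ms4a3, a gene of granulocyte precursors, from 376 to 183 FPKM, and Ifitm1, from 206 to 49.8 FPKM. Larger losses were not called: the neutrophil gene S100a9 went from 27200 to 24840 FPKM (adjusted p = 0.914), Ngp from 9223 to 7365 FPKM (adjusted p = 0.464) and Lcn2 from 3263 to 2302 FPKM (adjusted p = 0.18). 

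In the KEGG pathways of the deposited annotation with 15 to 500 tested genes, 324 in all, the largest shares of risen genes were those of protein digestion and absorption (20 of 65), whose risen members are collagens apart from Slc8a3 and Mme, and of ECM-receptor interaction (21 of 76). The renin-angiotensin pathway followed with 4 of 19, which were the mast cell genes Mcpt4 and Cma1 and the peptidase genes Anpep and Mme, and focal adhesion had 27 of 189. The largest shares of fallen genes were those of glycine, serine and threonine metabolism (3 of 32, Psat1, Chdh and Gatm), of cholesterol metabolism (3 of 35, Angptl4, Lipg and Tspo, with as many risen) and of lysine degradation (5 of 59, the histone methyltransferase genes Kmt2a, Kmt2c, Kmt2d, Nsd1 and Ash1l). These pathways share members with the lists above and add no independent count.

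Of 1124 transcription factors and related regulators in the deposited annotation, 29 rose and 36 fell, with a median of 0.02. Over all tested genes 4.05% rose and 2.39% fell. The Homeobox family had 6 rises and 2 falls among 72 and a median of 0.68, and the C2H2 zinc finger family 4 rises and 16 falls among 479 and a median of 0.05. The Homeobox genes that rose, named after their values were seen, were Mkx, which directs tendon differentiation, Prrx1, Prrx2 and Shox2 of limb mesenchyme, Irx5 and Meox2. Mkx was at 0.759, 0.747 and 0.503 CPM in naive and 3.399, 4.78 and 1.32 CPM in Ti (log2 fold change 2.24, SE 0.466, adjusted p = 0.0228). Prrx1 was at 20.2, 20.2 and 11.1 CPM in naive and 44.4, 45.9 and 26.6 CPM in Ti (log2 fold change 1.19, SE 0.252, adjusted p = 0.0236). Twist1, a factor of mesenchymal progenitors, was at 3.65, 2.19 and 0.964 CPM in naive and 6.704, 7.84 and 6.32 CPM in Ti (log2 fold change 1.61, SE 0.364, adjusted p = 0.0274). The groups were separate for these 3 genes, and Meox2 overlapped. Among regulators that fell, Lcor, a nuclear receptor corepressor, was at 15.8, 18.4 and 22.1 CPM in naive and 7.13, 8.25 and 5.98 CPM in Ti (log2 fold change −1.397, SE 0.2102, adjusted p = 0.00647). Tet2, which oxidises methylated DNA, was at 28.3, 26.2 and 41.5 CPM in naive and 17.6, 18.7 and 11.4 CPM in Ti (log2 fold change −1.01, SE 0.246, adjusted p = 0.0358). Zbed6, a DNA-binding factor derived from a transposon, was at 26.4, 33.1 and 42.5 CPM in naive and 12.8, 12 and 9.602 CPM in Ti (log2 fold change −1.57, SE 0.203, adjusted p = 0.00317).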

How the data were processed

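Polyadenylated RNA of mouse tibia was sequenced in 9 libraries. The authors deposited an expected count (an estimated count that need not be whole) per gene and library, with FPKM values, which the authors scaled by length and library total, in the same table. Per the submitters' processing notes fastp, StringTie 1.3.1, RSEM, DESeq2 and edgeR were used, in roles that are not stated. The aligner and the build: not given in the sources used here. From the deposited counts, rounded to whole numbers, edgeR 4.0.16 (R 4.3.3) with TMM normalisation, its default filter on low counts and its quasi-likelihood test fitted 1 mean per group over all 9 libraries (6 residual degrees of freedom) to 14211 of 22183 genes; 4425 genes had no count. DESeq2 1.42.0, limma 3.58.1, log2(FPKM + 1) values, other scalings and filters, transcript length offsets and leaving out each library were alternatives. On simulated counts for 14078 genes the Ti and naive fit recovered 76% of genes changed by 1 on the log2 scale and 100% of those changed by 2, with 17 false calls. The changed genes were drawn only from those above a minimum mean CPM, and each gene varied independently. The real libraries differed along a shared axis, so these rates do not give the power or the false calls of the real comparison. Same-numbered libraries of Ti and naive had correlations of deviations of −0.024, 0.33 and 0.24. The labels state no pairing by number, and the main fit used none.

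The compared groups and gene lists were chosen with earlier results of these data known. Named genes are the 15 largest rises and 15 largest falls (mean FPKM of at least 1, called, groups not overlapping), up to 4 called members of each list per direction by p, and markers a list is named for; some of these are not reported here. Other genes, among them Col1a1, Col1a2, Sparc, Sp7, Dkk1, Sfrp5, Ifitm6, Cx3cr1, Sox9, the further chromatin genes, the pathway and FPKM examples and the transcription factors, were named after their values were seen. Exon overlap (GENCODE M21) or over 25% of 31-base words shared with another gene marks a gene as uncertain, since the counting is not stated to use strand; this holds for 23.7% of tested genes.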

Additional observations from a re-analysis of the deposited data

How the results depend on the processing

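DESeq2 called 1817 genes, 1023 higher and 794 lower in Ti. Limma on log2(FPKM + 1) called 547, of which 307 were higher; on log2(FPKM + 0.1) it called 524, with 299 higher and 225 lower and a median of all genes of −0.10; without an FPKM filter it called 127, with 91 higher and 36 lower. The 6 libraries fitted alone gave 357, with 248 higher and 109 lower. The cause of these differences was not tested. With 1 library left out the calls ranged from 100 to 1999, those higher from 81 to 1175 and those lower from 18 to 824. Of the 164 genes named by rule 41 were called in all 6 of those fits; 117 lost the call without Ti replicate 1, 116 without Ti replicate 2, 85 without naive replicate 3 and 68 without naive replicate 1, and none changed direction in an alternative that tested it, some of which left out a few of these genes. The calls under limma-voom (885), DESeq2 size factors (896), upper-quartile factors (914), the removal of globin, mitochondrial and ribosomal protein genes (921), no count filter (1142), at least 50 counts in 3 libraries (848) and length offsets (834) stayed within 1.5 times of 914.

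With the replicate number as a block, in a pairing that the labels do not give, 2070 genes were called, 1092 higher and 978 lower; with the block and length offsets 2123, 1125 higher and 998 lower; and with the block over all 9 libraries, added after seeing the data, 2968, 1503 higher and 1465 lower. Ti replicate 1 correlated weakly with every naive library, at 0.051 with naive replicate 2 and −0.024 with its own number. Ti replicates 2 and 3 correlated best with their own numbers (0.33 and 0.24).

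With 3 libraries a group and a few genes at under 10 counts in a group, small changes were not detectable at this depth.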
